A study of Mus musculus with 4 samples.

Results

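Cyclins and cyclin-dependent kinases (CDKs) were examined in RNA sequencing of whole testis from mice mutant for Lrrc8a (MUT) and from wild-type (WT) mice. The Lrrc8a protein belongs to the volume-regulated anion channel, and the series relates deficient activity of this channel to male infertility. The members were taken by symbol, as every row named Ccn plus a letter and an optional number, or Cdk plus a number. This gave 42 of the 24420 symbols in the table, 24 cyclins and 18 CDKs. All 42 passed the filter on low values, so none is left out of what follows.

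Both genotypes were of the FVB strain and each was sequenced in 2 libraries, MUT 1 and MUT 2 and WT 1 and WT 2. The genotype is labelled lrrc8a MUT, and neither the kind of mutation nor the age of the mice is given in the sources used here. The labels do not say whether a genotype's libraries came from different mice, so p-values reflect spread between libraries that could be technical. The cell type is labelled as germ cells, yet markers of somatic testis cells were present, and the tissue is treated as whole testis.

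Cyclins bind CDKs and switch on their kinase activity, and the pairs drive entry into DNA replication, mitosis and meiosis. A further branch of both families, which includes cyclins C, H, K and T and CDK7, CDK8, CDK9, CDK12 and CDK13, acts mainly on RNA polymerase II, with CDK7 also activating the cell cycle kinases. In mouse testis the families serve mitotic spermatogonia, meiotic spermatocytes and postmeiotic spermatids in turn. Male mice without Ccna1, the germ cell form of cyclin A, or without Cdk2 are sterile because spermatocytes fail in meiosis.

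The libraries held between 40426400 (MUT 2) and 68192776 (WT 1) reads assigned to genes, and the least covered member in a library still had 78 reads. Together the 42 genes made up 2411 and 2488 CPM, read counts scaled to library size, in MUT 1 and MUT 2, against 2467 and 2503 CPM in WT 1 and WT 2. Lrrc8a itself was at 13.49 and 15.86 CPM in MUT, against 18.21 and 17.15 CPM in WT, a difference that was not called (log2 fold change -0.26, SE 0.0998, limma adjusted p = 0.218). Leydig markers summed to 1290 and 1343 CPM in MUT and 1143 and 1114 CPM in WT, with 1 of 10 called higher (Cyp17a1) and none at 0. Peritubular myoid markers summed to 442.7 and 462.4 CPM in MUT and 494 and 475.6 CPM in WT, with 0 of 8 called. Spermatogonial markers summed to 131.2 and 125 CPM in MUT and 117.8 and 130.6 CPM in WT. Of 8 tested, 4 lay above 0 and 4 below on the log2 scale, and Kit alone was called, higher. Macrophage markers summed to 108.1 and 115.9 CPM in MUT and 113.7 and 102.8 CPM in WT. Of 8 tested, 5 lay above 0 and 3 below, and Cd74 alone was called, lower. In the spermatocyte, round spermatid, elongating spermatid, Sertoli and endothelial lists 0 genes were called. Above and below 0 were 3 and 7 spermatocyte, 5 and 5 round spermatid and 2 and 8 elongating spermatid markers. For Sertoli markers these counts were 8 and 2, and for endothelial markers 4 and 2. For Leydig markers they were 8 and 2, and for peritubular myoid markers 1 and 7. Epididymis markers summed to 0.369 and 0.6841 CPM in MUT and 0.3411 and 0.382 CPM in WT, and Spint4 was at 0. In whole tissue, fewer cells of a type and less RNA per cell cannot be told apart.

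No cyclin or CDK gene differed between MUT and WT testis at an adjusted p under 0.05. The count was 0 of 42 higher and 0 of 42 lower by limma on log2(CPM + 0.5), with p adjusted over all 15364 tested genes, of which 0.749% were called, 0.482% higher and 0.267% lower. edgeR's quasi-likelihood test and DESeq2, run on reads recovered from the CPM, also called 0 members, of 42 by edgeR and of 40 by DESeq2. DESeq2 gave no adjusted p for Ccnj and Cdk15. At an unadjusted p under 0.05 the members numbered 5 by limma, 5 by edgeR and 4 by DESeq2. The 5 by limma are 11.9% of the members, against 14.7% of all tested genes. The lowest adjusted p of any member was 0.11 by limma, 0.11 by edgeR and 0.0899 by DESeq2, each time for Cdk12, over the members with an adjusted p.

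The members' differences were close in size to those of other genes. Their log2 fold changes, MUT minus WT, ran between -0.26 (Ccnj) and 0.36 (Ccnb3). Of them 23 (54.8%) were above 0 and 19 below, against 49.6% of all tested genes above 0. The median was 0.0135, against -0.00159 for all tested genes, and the median size without sign was 0.107, against 0.0934. The MUT libraries lay wholly above the WT libraries for 11 members and wholly below them for 8, together 45.2% of the members, while 45.6% of all tested genes were separated in this way, 23% with MUT above and 22.6% with MUT below. The 95% interval of the fold change, not adjusted for the number of genes, lay within 1.5-fold either way for 40 of the 42 members and within 1.3-fold for 34. The exceptions at 1.5-fold were Ccnb3 and Ccnj, both weakly expressed. In simulated reads with the spread of these libraries the same test called 28% of genes set to a 1.2-fold change, 73% at 1.5-fold and 98% at 2-fold, so that changes of the size seen here would mostly be missed.

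**Figure D1:**
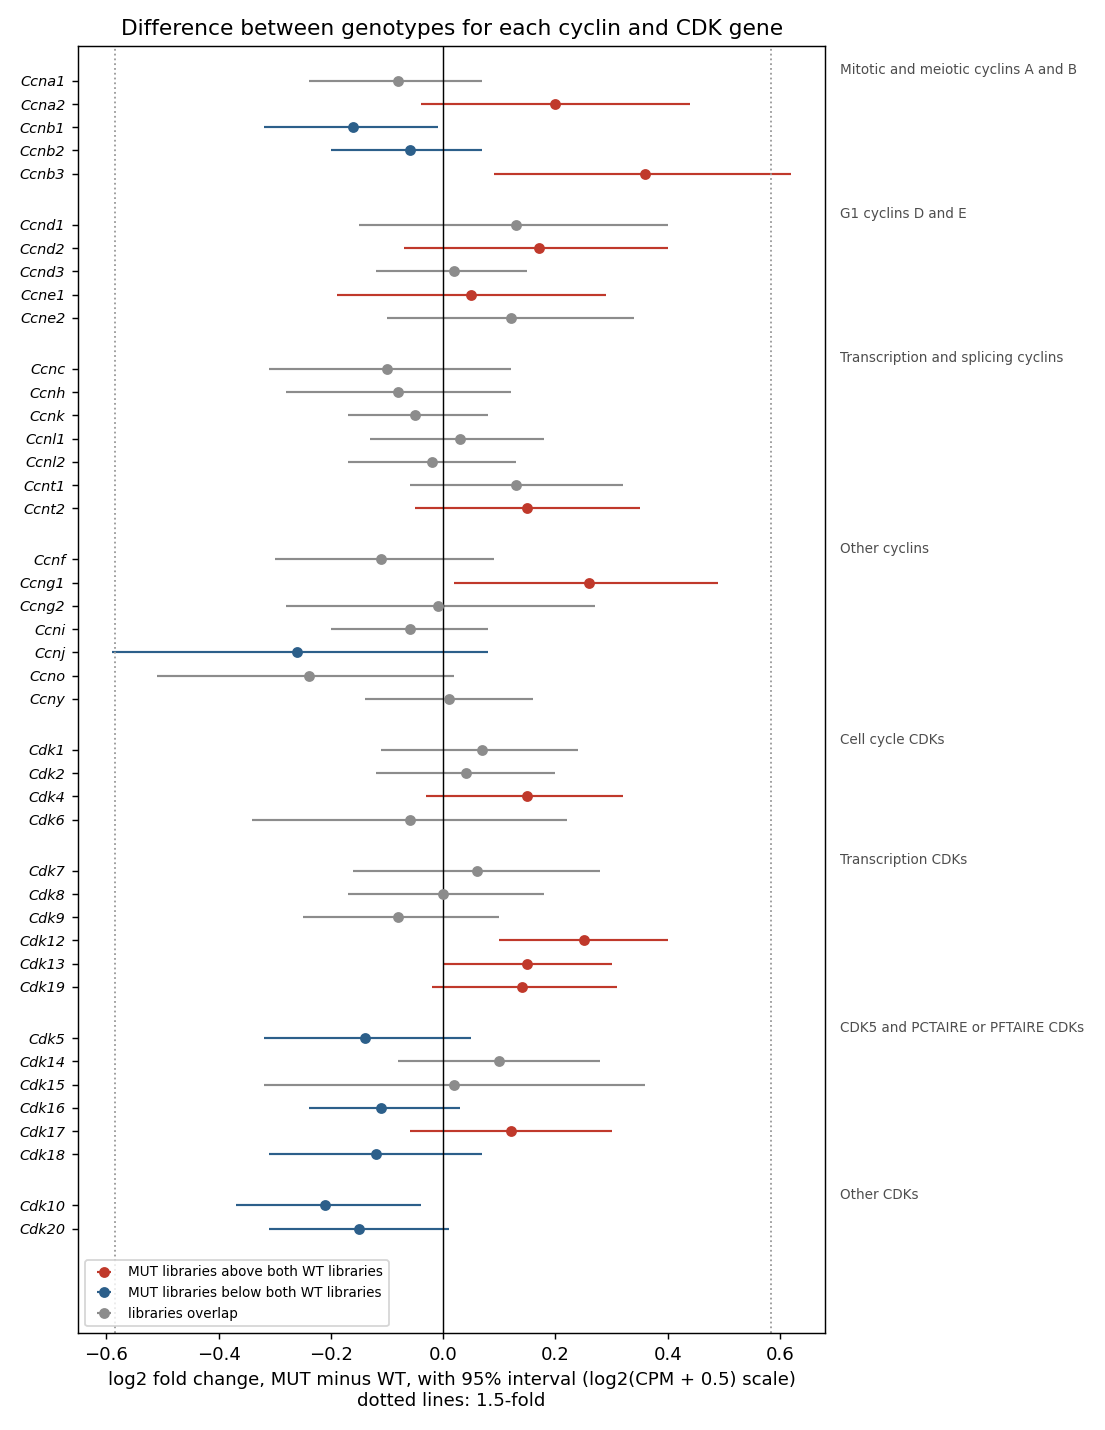
Log2 fold change (x axis, MUT minus WT, on the log2(CPM + 0.5) scale) of each cyclin and CDK gene (rows, by role) with its 95% interval from limma; colours show whether the libraries of the genotypes overlap, and dotted lines mark 1.5-fold. The points run between -0.26 (Ccnj) and 0.36 (Ccnb3), and only the intervals of Ccnb3 and Ccnj reach past a dotted line.

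Among the A and B cyclins, which bring cells into mitosis and meiosis, 0 of 5 were called. Ccna1 was at 119.2 and 135.3 CPM in MUT, against 139.3 and 129.9 CPM in WT. The libraries overlapped (log2 fold change -0.08, SE 0.073, limma adjusted p = 0.64). Ccna2, the cyclin A of dividing somatic cells and spermatogonia, was at 8.672 and 10.41 CPM in MUT, against 8.336 and 8.102 CPM in WT. The MUT libraries lay above, MUT 1 only by a little (0.20, SE 0.114, limma adjusted p = 0.436). Ccna2 overlaps Exosc9 on the opposite strand, at 24.95 and 26.07 CPM in MUT and 28.52 and 27.06 CPM in WT.

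The B cyclins lay on either side of 0. Ccnb1, the partner of CDK1 at entry into M phase, was at 63.47 and 69.56 CPM in MUT, against 75.29 and 73.59 CPM in WT. Both MUT libraries were below both WT libraries, at 0.893 times the WT level (log2 fold change -0.16, SE 0.0731, 95% interval -0.32 to -0.01, limma adjusted p = 0.307). Ccnb2, which is closely related to Ccnb1, was at 128.5 and 134.6 CPM in MUT, against 136.5 and 138.4 CPM in WT. It was also lower in both MUT libraries, by less (-0.06, SE 0.0652, limma adjusted p = 0.701). Ccnb3, a cyclin of early meiotic prophase in the mouse testis, was at 5.187 and 5.668 CPM in MUT, against 3.975 and 4.262 CPM in WT. This was the largest difference of any member, 1.28-fold, with both MUT libraries above both WT libraries (0.36, SE 0.126, 95% interval 0.09 to 0.62, limma adjusted p = 0.186). It stayed between 0.30 and 0.42 in all 16 alternative analyses and was called in none of them.

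The promoters of the B cyclins are shown because these paralogs differ both in level and in the direction of their MUT to WT values. No B cyclin was called, and a link between promoter letters and level or direction was not tested. Cdk12 is shown as the member with the smallest p. Each window holds 250 bases before and 50 bases after the RefSeq start of the gene on GRCm38.p6, written 5′ to 3′ on the strand of the gene. Capitals mark CCAAT, the core of the box bound by NF-Y, and TTTGAA. The latter is a form of the cell cycle homology region bound by the DREAM complex. Both were marked on either strand (ATTGG and TTCAAA on the other strand), and no marked stretches overlap. The windows are chr13:100786437-100786736 for Ccnb1, chr9:70421505-70421804 for Ccnb2 and chrX:7041570-7041869 for Ccnb3, all on the minus strand, and chr11:98203055-98203354 on the plus strand for Cdk12.
Ccnb1: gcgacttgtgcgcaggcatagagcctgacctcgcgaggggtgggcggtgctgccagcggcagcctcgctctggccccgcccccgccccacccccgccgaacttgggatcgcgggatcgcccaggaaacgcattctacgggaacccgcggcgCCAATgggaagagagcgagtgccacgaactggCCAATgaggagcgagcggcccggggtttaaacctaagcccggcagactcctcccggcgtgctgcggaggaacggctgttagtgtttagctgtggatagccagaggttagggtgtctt
Ccnb2: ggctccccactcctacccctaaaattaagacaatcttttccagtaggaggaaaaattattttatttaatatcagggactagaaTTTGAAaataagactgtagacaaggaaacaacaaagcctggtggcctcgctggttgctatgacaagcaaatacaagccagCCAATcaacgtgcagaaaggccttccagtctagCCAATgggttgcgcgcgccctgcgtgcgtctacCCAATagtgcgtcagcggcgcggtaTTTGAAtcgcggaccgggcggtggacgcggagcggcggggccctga
Ccnb3: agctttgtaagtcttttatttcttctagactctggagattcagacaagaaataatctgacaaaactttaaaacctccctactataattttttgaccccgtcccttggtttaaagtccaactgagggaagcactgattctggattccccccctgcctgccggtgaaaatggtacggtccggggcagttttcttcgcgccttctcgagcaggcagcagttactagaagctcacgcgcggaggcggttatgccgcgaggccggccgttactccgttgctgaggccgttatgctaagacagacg
Cdk12: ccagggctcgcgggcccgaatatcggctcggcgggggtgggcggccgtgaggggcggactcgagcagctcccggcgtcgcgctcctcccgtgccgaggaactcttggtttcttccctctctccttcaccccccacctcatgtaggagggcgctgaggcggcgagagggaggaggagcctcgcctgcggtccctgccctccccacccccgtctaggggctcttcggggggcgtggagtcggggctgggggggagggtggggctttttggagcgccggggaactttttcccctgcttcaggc

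The Ccnb1 window held CCAAT at 2 places and no TTTGAA. The Ccnb2 window held 3 CCAAT and 2 TTTGAA. The Ccnb3 and Cdk12 windows held neither. Over the whole family, 33 of the 42 genes matched the RefSeq table, with 35 windows in all. CCAAT was found in 17 of these windows (48.6%), against 37.4% of 32851 windows of the same length. TTTGAA was found in 5 (14.3%), against 17.9%, in Ccnb2, Ccnf, Ccni, Cdk1 and Cdk16. The E2F letters TTTCCCGC were in 1 window, that of Cdk2 (2.86%, against 1.07%), and TTTGGCGC in 0 (against 0.514%). The TTTCCCGC and TTTGGCGC searches also read both strands. Such matches describe letters and not bound sites. Variants of TTTGAA, such as TTTAAA, were not searched, so a window without TTTGAA may hold another form of the region.

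Among the D and E cyclins, which act at the passage from G1 into S phase, 0 of 5 were called. All 5 had a log2 fold change above 0, as had 49.6% of all tested genes. Those of Ccnd1, Ccnd3 and Ccne2 fell below 0 in an alternative. Ccnd3 was at 146.8 and 154.8 CPM in MUT, against 150.5 and 147.6 CPM in WT, with the libraries overlapping (log2 fold change 0.02, 95% interval -0.12 to 0.15). Ccnd2, a cyclin of spermatogonia, was at 9.923 and 8.356 CPM in MUT, against 8.276 and 7.861 CPM in WT. The MUT libraries were higher, MUT 2 only slightly (0.17, SE 0.114, limma adjusted p = 0.53). Ccnd1 was at 5.699 and 5.424 CPM in MUT, against 5.621 and 4.544 CPM in WT, with WT 2 apart from the others. Ccne1 was at 6.643 and 6.572 CPM in MUT, against 6.482 and 6.273 CPM in WT. Its libraries were separated but by 1.03-fold. Ccne2, which with Ccne1 activates CDK2 and is needed for male meiosis in mice, was at 27.19 and 25.04 CPM in MUT, against 21.06 and 27.32 CPM in WT. WT 1 was low and WT 2 above both MUT libraries (0.12, SE 0.105, limma adjusted p = 0.64).

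Of the 7 cyclins of transcription and splicing, 0 were called and 6 had overlapping libraries. Ccnk, the partner of CDK12 and CDK13, was at 541.4 and 557.2 CPM in MUT, against 586.4 and 548.6 CPM in WT, a log2 fold change of -0.05 (SE 0.0601). Its interval, -0.17 to 0.08, was among the narrowest. Ccnt2, a cyclin of the elongation factor P-TEFb, was at 19.37 and 20.3 CPM in MUT, against 16.67 and 19.02 CPM in WT. The MUT libraries were higher, by little against WT 2 (0.15, SE 0.0942, limma adjusted p = 0.477). Its paralog Ccnt1 was at 20.89 and 22.5 CPM in MUT, against 20.91 and 18.68 CPM in WT, with MUT 1 and WT 1 almost level. Ccnl1 and Ccnl2, cyclins found with splicing factors, had log2 fold changes of 0.03 and -0.02. Ccnc of the Mediator kinase module and Ccnh of the CDK-activating kinase had -0.10 and -0.08, and in both WT 2 was the highest library.

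Of the 7 remaining cyclins 0 were called. Ccng1, a p53 target, was at 9.677 and 9.064 CPM in MUT, against 7.372 and 8.183 CPM in WT. Both MUT libraries were above both WT libraries (log2 fold change 0.26, SE 0.11, 95% interval 0.02 to 0.49, limma adjusted p = 0.288). Its paralog Ccng2 was at 6.827 and 6.084 CPM in MUT, inside the WT values of 5.666 and 7.419 CPM. Ccno, needed for the many centrioles of multiciliated cells, was at 6.335 and 8.503 CPM in MUT, against 9.092 and 8.484 CPM in WT. MUT 1 alone stood apart, and the log2 fold change was -0.24 with all libraries, against values between -0.44 and -0.04 over the alternatives. Ccnj was at 1.886 and 1.93 CPM in MUT, against 2.077 and 2.714 CPM in WT. WT 2 was the highest, and the interval of the log2 fold change was wide (-0.59 to 0.08). Ccni, with 283.2 and 298.4 CPM in MUT and 287.5 and 321.3 CPM in WT, Ccny, the partner of CDK14 and CDK16, and Ccnf, which is part of an SCF ubiquitin ligase, had overlapping libraries and log2 fold changes of -0.06, 0.01 and -0.11.

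Among the CDKs of the cell cycle 0 of 4 were called. Cdk1, the kinase of M phase, was at 30.79 and 32.79 CPM in MUT, against 28.92 and 31.73 CPM in WT, a log2 fold change of 0.07 (SE 0.084). Cdk2, which in spermatocytes sits at telomeres and crossover sites, was at 63.54 and 57.66 CPM in MUT, against 56.88 and 61.14 CPM in WT (0.04, SE 0.0768). The libraries overlapped for both kinases. Cdk4, a partner of D cyclins, was at 32.82 and 33.03 CPM in MUT, against 28.43 and 31.06 CPM in WT. The genotypes were separated, MUT being higher (0.15, SE 0.0823, limma adjusted p = 0.43). Cdk4 overlaps Tspan31 on the opposite strand, which was at 11.38 and 11.19 CPM in MUT and 9.33 and 10.27 CPM in WT. Cdk6, the other D cyclin kinase, was at 4.1 and 5.009 CPM in MUT, around the WT values of 4.924 and 4.564 CPM.

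The CDKs of transcription held the member with the smallest p, and 5 of these 6 had a log2 fold change above 0, with 0 called. Cdk12, which phosphorylates RNA polymerase II during elongation, was at 69.21 and 65.16 CPM in MUT, against 55.59 and 57.06 CPM in WT. Both MUT libraries were above both WT libraries, by 1.19-fold (log2 fold change 0.25, SE 0.0727, 95% interval 0.10 to 0.40, limma adjusted p = 0.11). By p it was number 373 of the 15364 tested genes. Over the 16 alternatives its log2 fold change was 0.19 to 0.30 and its adjusted p 0.0589 to 0.568. Cdk13, its closest paralog, was at 93.86 and 94.85 CPM in MUT, against 80.6 and 89.95 CPM in WT, with WT 1 low (0.15, SE 0.0722, limma adjusted p = 0.353). Cdk19 of the Mediator kinase module was at 62.49 and 64.67 CPM in MUT, against 53.81 and 61.68 CPM in WT, with WT 1 low again (0.14, SE 0.0785, limma adjusted p = 0.424). Its paralog Cdk8 was at 27.16 and 29.22 CPM in MUT, around the WT values of 27.78 and 28.41 CPM. Cdk9 of P-TEFb was at 41.39 and 44.17 CPM in MUT, against 48.15 and 42.26 CPM in WT. Cdk7, the CDK-activating kinase, was at 21.73 and 24.68 CPM in MUT, inside the WT values of 19.83 and 24.87 CPM.

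Of the 6 kinases in the group of CDK5 and the PCTAIRE and PFTAIRE kinases 0 were called. Cdk16, which is needed for normal sperm formation in mice, was at 138.6 and 139.8 CPM in MUT, against 148.4 and 151.6 CPM in WT. MUT was lower in either library, and libraries of a genotype lay close together (log2 fold change -0.11, SE 0.064, limma adjusted p = 0.457). Its paralogs Cdk17 and Cdk18 lay on opposite sides of 0. Cdk17 was at 26.53 and 26.7 CPM in MUT, against 23.46 and 25.53 CPM in WT. Cdk18 was at 19.99 and 18.08 CPM in MUT, against 20.41 and 21.07 CPM in WT. The genotypes did not overlap for either paralog, and the adjusted p by limma was 0.549 for Cdk17 and 0.562 for Cdk18. Cdk5 was at 20.93 and 19.23 CPM in MUT, against 21.83 and 22.42 CPM in WT. Cdk14 and Cdk15 had overlapping libraries and log2 fold changes of 0.10 and 0.02.

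Cdk10 and Cdk20, the kinases left over by the other groups, were both lower in MUT without being called. Cdk10, the partner of cyclin M, was at 39.73 and 40.75 CPM in MUT, against 48.09 and 44.9 CPM in WT. Both MUT libraries were below both WT libraries, at 0.867 times the WT level (log2 fold change -0.21, SE 0.0771, 95% interval -0.37 to -0.04, limma adjusted p = 0.216). Cdk10 overlaps Spata2l on the opposite strand, at 35.22 and 35.21 CPM in MUT and 38.92 and 34.76 CPM in WT, and the predicted gene Gm20388 on its own strand. Cdk20, a kinase tied to primary cilia, was at 42.38 and 42.49 CPM in MUT, against 46.19 and 48.05 CPM in WT (-0.15, SE 0.0753, limma adjusted p = 0.367). In all, 10 members overlap a coding gene on the opposite strand, and whether the authors counted by strand is not stated in the labels.

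**Figure D2:**
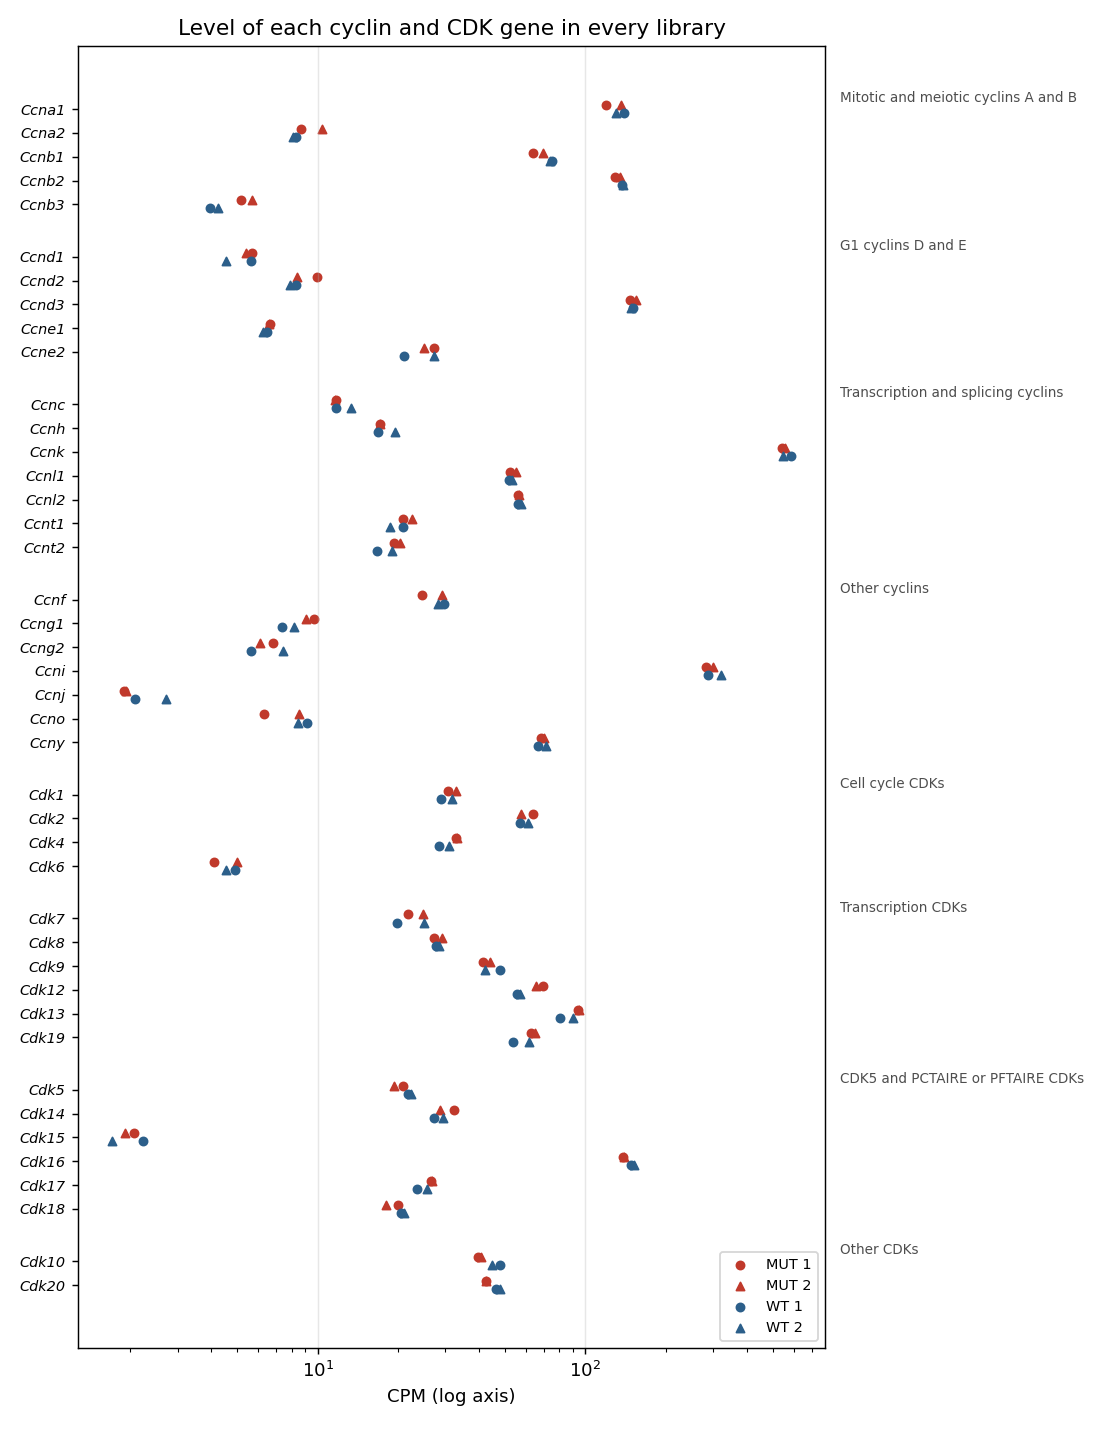
CPM (x axis, log axis) of each cyclin and CDK gene (rows, by role) in MUT 1, MUT 2, WT 1 and WT 2, one point per library. The 4 points of a gene lie close together over a range of levels between 1.709 CPM (Cdk15, WT 2) and 586.4 CPM (Ccnk, WT 1).

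Levels of different genes were compared as CPM per kilobase of the longest coding transcript in GENCODE vM21, and with the union of all annotated exons as the other length. Ccnk was the most abundant member, at 194.1 and 199.8 CPM per kb in MUT, against 210.3 and 196.7 CPM per kb in WT. Ccni followed at 101 and 106.4 CPM per kb in MUT, against 102.5 and 114.6 CPM per kb in WT. Next came Ccnb2, at 83.95 and 87.95 CPM per kb in MUT, against 89.15 and 90.38 CPM per kb in WT. Then came Ccna1, at 69.32 and 78.71 CPM per kb in MUT, against 81.01 and 75.56 CPM per kb in WT. These 4 held ranks 1 to 4 under both lengths. Ccnd3, with a mean of 71.36 CPM per kb in MUT and 70.54 CPM per kb in WT, was not separated from Ccna1, and with all exons counted it was at 17.18 and 16.99 CPM per kb. Cdk16 was the most abundant kinase, at 42.57 CPM per kb in MUT and 45.88 CPM per kb in WT. Cdk6 was the least abundant member, at 0.3952 CPM per kb in MUT and 0.4116 CPM per kb in WT.

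Within several families a single paralog held most of the level. By transcript length the T, L and G cyclins and the pair Cdk8 and Cdk19 were near even. With all exons counted Cdk19 held a mean of 78.3% of its pair and Ccng1 67.2% of the G cyclins. As a share of CPM per kb, Ccna1 made up 96% and 95.7% of the A cyclins in MUT 1 and MUT 2, against 96.6% and 96.5% in WT 1 and WT 2. Ccnd3 made up 95.7% and 96.4% of the D cyclins in MUT, against 96.2% and 96.6% in WT, and a mean of 89.3% over the libraries with all exons counted. Among the B cyclins Ccnb2 held 75.9% and 75.1% in MUT, against 74.1% and 74.8% in WT, while Ccnb3 held 1.03% and 1.06% in MUT, against 0.726% and 0.774% in WT. Ccne2 held 73.1% and 71.7% of the E cyclins in MUT, against 68.4% and 74.3% in WT. Among the classical kinases Cdk2 held 53% and 49.9% in MUT, against 53.1% and 52.7% in WT, and Cdk6 under 1% in each library. With all exons counted the mean shares were 37.2% for Cdk2, 37.2% for Cdk4 and 1.29% for Cdk6, so that the lead of Cdk2 depended on the length used. Between CDK12 and CDK13 the larger share depended on the length used, since Cdk12 held 61% and 59.3% in MUT and 59.4% and 57.4% in WT by transcript length but a mean of 44% with all exons. With 2 libraries a side the smallest two-sided p of an exact permutation test is 0.333, so shares were not tested.

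**Figure D3:**
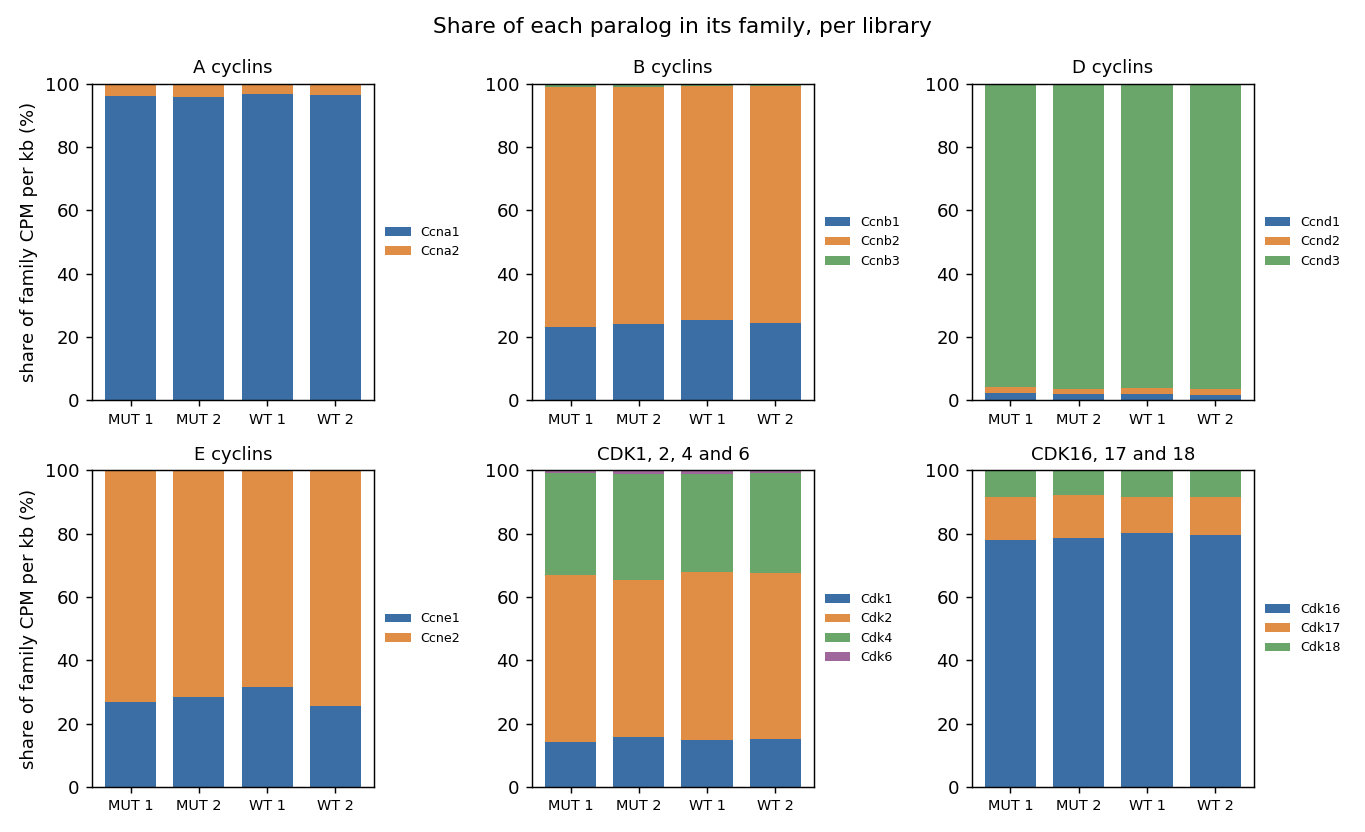
Share of each paralog (coloured stack, y axis in percent of the family's summed CPM per kb) in MUT 1, MUT 2, WT 1 and WT 2 for 6 families. Ccna1 holds 95.7% to 96.6% of the A cyclins and Ccnd3 95.7% to 96.6% of the D cyclins.

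Among the members, low GC content tended to go with values above 0 and high GC content with values below 0. The members with the lowest and highest GC content, Ccnc (35.53%) and Ccnd3 (58.45%), went the other way (-0.10 and 0.02). Across the 42 members Spearman's rho between log2 fold change and GC content of the longest coding transcript was -0.458, and across 14778 tested genes with a transcript it was -0.222. Genes share libraries and are not independent, so these are descriptions. In all tested genes the median log2 fold change was 0.030 between 40% and 44% GC and -0.062 above 56% GC. Ccnb3 and Ccng1 have GC contents of 41.28% and 40.77%, Cdk12 has 48.66% and Cdk10 has 56.46%. With the dependence on GC content and length taken out of each library, the log2 fold change was 0.32 for Ccnb3, 0.24 for Ccng1, 0.19 for Cdk12, -0.16 for Cdk10 and -0.18 for Ccnb1. Other members moved further, to 0.03 for Cdk13, 0.04 for Ccnt1, 0.07 for Cdk19, 0.07 for Ccnt2 and 0.09 for Ccnd2. Cdk6 moved away from 0, from -0.06 to -0.18, and Ccny changed sign, from 0.01 to -0.06. In all, 26 of the 42 members came nearer to 0, 13 moved away from it and 3 stayed level to 2 decimals. No member was called, and the lowest adjusted p of a member was then 0.169 (limma).

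**Figure D4:**
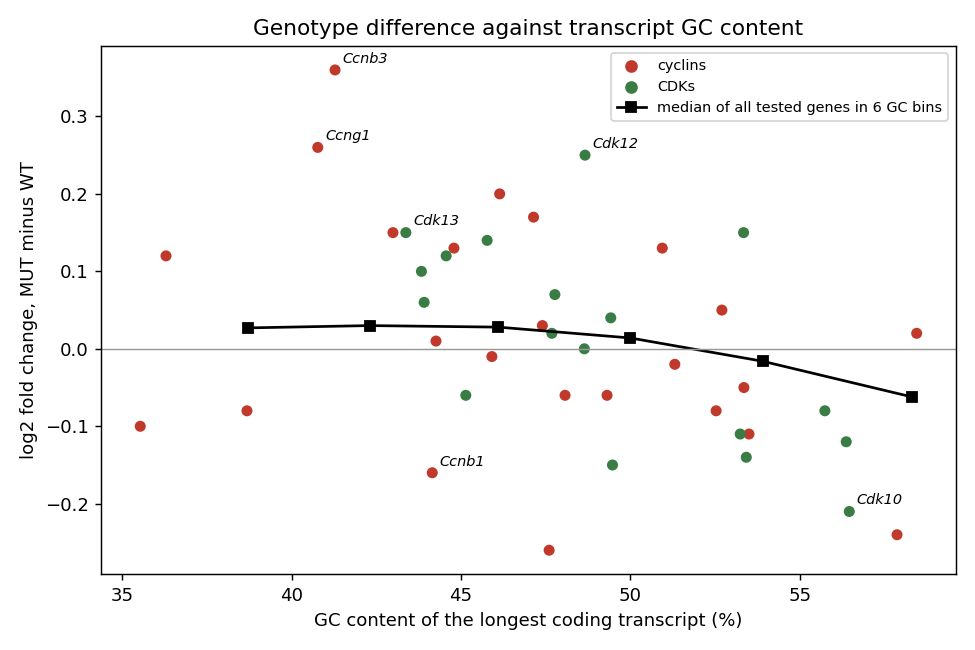
Log2 fold change, MUT minus WT (y axis), of each cyclin and CDK gene against the GC content of its longest coding transcript in percent (x axis), with the median of all tested genes in 6 GC bins as squares joined by a line. Ccnb3 and Ccng1 lie at the upper left and Cdk10 at the lower right. The line starts at 0.027 in the lowest GC bin, is at 0.030 in the next and ends at -0.062 in the highest.

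Among regulators and relatives of the family, 0 genes were called in each of 6 lists by limma over all genes. Lin37, Med13 and Cdk5rap2 were called in at least 1 alternative that kept all libraries. These lists together hold more genes than the family, and the share of all tested genes called in any alternative was not counted. Of 10 inhibitors of CDKs, 4 lay above 0 on the log2 scale and 6 below (median -0.0283). Cdkn1c, which encodes p57, had the smallest p there, at 9.041 and 9.211 CPM in MUT, against 10.16 and 12.4 CPM in WT (limma adjusted p = 0.236). Next came Cdkn3, a phosphatase of CDKs, and Cdkn2d, which encodes p19INK4D, with log2 fold changes of -0.14 and 0.13. Of 17 tested activators and partners, 5 were above 0 and 12 below (median -0.0933), and 10 (58.8%) had both MUT libraries below both WT libraries, against 22.6% of all tested genes. Of these, 3 had an unadjusted limma p under 0.05. This list also holds the kinases Wee1 and Pkmyt1, which inhibit CDKs, so it is not a list of activators alone. Both had MUT libraries below both WT libraries, with log2 fold changes of -0.04 and -0.14. Cables1, a CDK adaptor, was at 1.681 and 1.784 CPM in MUT, against 2.477 and 2.714 CPM in WT (limma log2 fold change of -0.47, SE 0.153, adjusted p = 0.158). Spdya, the activator of CDK2 at meiotic telomeres, was at 73.29 and 72.08 CPM in MUT, against 78.02 and 89.09 CPM in WT (-0.20, SE 0.0755, limma adjusted p = 0.227). Bora, a co-activator of Aurora A, was at 34.2 and 34.6 CPM in MUT, against 37.72 and 40.93 CPM in WT.

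In the retinoblastoma and E2F list, the transcription regulators upstream and downstream of G1 CDKs, 15 of 20 were above 0 and 5 below (median 0.075). Lin37, a subunit of the DREAM complex that represses cell cycle genes, was at 17.16 and 17.08 CPM in MUT, against 23.85 and 21.27 CPM in WT. It was lower in either MUT library, and limma did not call it (log2 fold change -0.39, SE 0.0916, adjusted p = 0.0567). Among 14 partners of the Mediator kinase and P-TEFb, 9 were above 0 and 5 below (median 0.0822). Med13, which links the kinase module to Mediator, was at 94.49 and 93.89 CPM in MUT, against 74.73 and 79.86 CPM in WT (0.28, SE 0.0696, limma adjusted p = 0.0624). DESeq2 called Lin37 (adjusted p = 0.0459) and Med13 (adjusted p = 0.0263), and both were called by limma without WT 2, at adjusted p of 0.0385 and 0.0374. The next by p were Tfdp1 and Rbl1 in the first list (0.19 and 0.21) and Aff4 and Med13l in the second (0.18 and 0.22). These genes had both MUT libraries above both WT libraries. So had 5 of 20 genes (25%) in the first list and 7 of 14 (50%) in the second, against 23% of all tested genes. Both MUT libraries lay below in 4 of the first list and 3 of the second (20% and 21.4%, against 22.6%). Of 25 genes of the anaphase-promoting complex and cyclin turnover, 10 were above 0 and 15 below (median -0.0439), with Anapc1 at the smallest p (0.16, limma adjusted p = 0.274). Skp2 (-0.17) and Anapc2 (-0.12) followed, and Skp2 was called lower without WT 1 (limma adjusted p = 0.0493). Of 17 cyclin-like and CDK-like relatives that the symbol rule leaves out, 7 were above 0 and 10 below (median -0.0422), and the smallest p was that of Cdkal1, a tRNA-modifying enzyme (-0.19, limma adjusted p = 0.23). Ccnyl1, a relative of Ccny, and Cdk5rap2, a centrosome protein, each had -0.14, and Cdk5rap2 was called lower after GC and length correction (limma adjusted p = 0.0472).

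**Figure D5:**
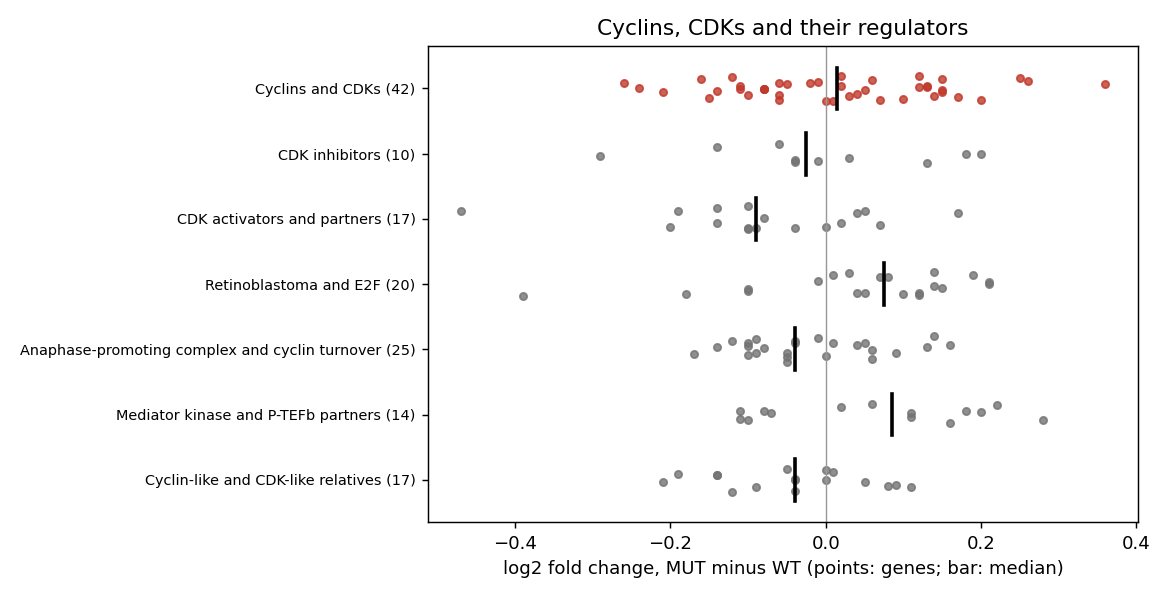
Log2 fold change, MUT minus WT (x axis), of the 42 cyclins and CDKs and of the tested genes in 6 lists of regulators and relatives (rows, number of genes in parentheses), one point per gene with the median as a bar. The medians lie between -0.0933 for activators and partners and 0.0822 for Mediator kinase and P-TEFb partners. The activators and partners include the inhibitory kinases Wee1 and Pkmyt1.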

How the data were processed

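The authors deposited 1 table of CPM for 24420 symbols, made per the submitters' processing notes with TopHat2 2.0.10, HTSeq 0.6.0, edgeR 3.8.6 and build mm10, whose roles are not given. Per the labels' protocols, Trizol RNA was DNase treated and made into TruSeq stranded mRNA libraries. The column sums, 987722.6 to 1011463.1, point to scaled library sizes. All values lay within 0.001 of a whole multiple of 1 read (100% in each library), which recovered the reads. A floor of 3 reads is 0.0445 to 0.0733 CPM and covers counting error only.

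Symbols reaching 1 CPM in 2 or more libraries were tested. Values as log2(CPM + 0.5) were tested with limma 3.58.1 in R 4.3.3 (lmFit, eBayes with trend), two-sided, adjusting p over all tested genes after Benjamini and Hochberg, with a threshold of 0.05. Such fold changes understate those of weakly expressed genes. Alternatives were edgeR 4.0.16 and DESeq2 1.42.0 on the recovered reads and changes of pseudocount, filter, variance, scaling, block and libraries. The pipeline was tested on simulated reads (15340 genes, 11 false calls). Positions and lengths came from GENCODE vM21 (GRCm38), where 23376 symbols matched, and promoters from RefSeq.

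Every member is described. From each list of regulators, called genes and the 3 with the smallest p are named. The members and lists were chosen with earlier results of these data known.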

Additional observations from a re-analysis of the deposited data

How the results depend on the processing

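Over 16 alternatives, of which the GC and length correction and the crossed replicate numbers were added after the data were seen, 0 members were called in any, among 670 values with an adjusted p. DESeq2 gave none for Ccnj and Cdk15. The lowest adjusted p was 0.0589 (limma), for Cdk12 with the numbers crossed. Of the 42 members, 25 kept the direction of their log2 fold change in all 16. Counts over all genes, 74 higher and 41 lower in MUT, were less stable. Without the low-value filter they were 7 and 4, without the variance trend 5 and 2, and 35 and 18 after quantile normalization. DESeq2 called 71 lower. Leaving out single libraries gave 71 to 115 higher and 43 to 165 lower. Without WT 1 the counts were 115 higher and 165 lower, and without MUT 2 there were 89 lower. The cause was not tested. Deviations of MUT 1 and WT 1 from their group means correlated at -0.134 across genes. The replicate block gave 57 higher and 31 lower, the crossed numbers 131 and 104, and both 0 members. The members' median log2 fold change was -0.0151 to 0.0238 when single libraries were left out, so its sign is not settled. Each member had at least 78 reads in each library, and 2 libraries per genotype limit the size of change that can be called.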
